A study of Saccharomyces cerevisiae with 6 samples.

Results

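The genes described here encode the factors that start, carry forward and end protein synthesis on the cytosolic ribosome of the budding yeast Saccharomyces cerevisiae. They are 41 genes chosen by name, and all 41 were found on the array with 1 spot each and a value on each of 6 arrays, out of 5212 named genes with a complete set of values. In initiation, the eIF4 factors bind the cap of the messenger RNA, eIF3 and eIF2 bring the small ribosomal subunit with its initiator tRNA, and eIF1, eIF1A, eIF5 and eIF5B set the start codon and join the large subunit. The elongation factors eEF1A, eEF2 and eEF3 with eIF5A then drive each round of peptide bond formation, and the release factors eRF1 and eRF3 end it. In yeast much of this machinery is transcribed at high rates in growing cells, and the kinase complex TORC1, which caffeine inhibits, ties both the making and the use of the machinery to nutrients.

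Polyadenylated RNA from caffeine-treated cells was set against RNA of the same strain without caffeine on 2-colour arrays. Both strains were W303a cells with the chromosomal TOR1 gene deleted and carried a plasmid with 3HA-TOR1, so that the tagged plasmid copy was the only TOR1. One strain (WT) carried the unaltered tagged gene and the other (mutant) the gene with the substitutions I1954V and W2176R, which the labels write as 3HA-TOR1 [I1954V + W2176R]. Caffeine was given at 3, 6 or 9 mM, and each dose of each strain is 1 array, never repeated. Growth medium, time in caffeine, and whether the doses were separate cultures are not stated in the sources used here, so the p-values take their error from the scatter of these arrays about a dose line, and that scatter may be technical.

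Values are log2 ratios, made by the authors and centred here on the median named gene of each array, so that 0 is no change relative to that median. Untreated RNA carried Cy3 and caffeine RNA Cy5 on all arrays. The ratio was taken as caffeine over no caffeine, the usual Cy5 over Cy3 order, which is likely but not stated in the sources used here, and every sign below would turn if it ran the other way. As deposited, the array medians lay between -0.54 and -0.22. Wherever 3 values are given together, they are those at 3, 6 and 9 mM. A slope is the fitted change in log2 ratio per mM through 0 (n = 3 arrays per allele) with its moderated SE, which pools the spread of both alleles. The words rose and fell are kept for slopes with a limma Benjamini-Hochberg adjusted p below 0.05 over all 5212 genes, and such genes are named called. As the line runs through 0, a gene equally low at all doses can also be called. A fall thus need not grow with each step of dose. Each array compares a strain with itself, so its TOR1 spot does not check the allele, and its ratio gives no level, so the amounts of the factors cannot be set against each other. In such bulk RNA, fewer cells with a transcript and less of it per cell cannot be told apart.

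Translation factor genes that fell with caffeine were more numerous in WT cells than in the mutant, though only 2 had slopes that differed between the alleles by the test of the slope difference. In WT, 20 of 41 fell (48.8%) and none rose, where 16.3% of all genes fell and 17.2% rose. In the mutant, 11 of 41 fell (26.8%) and 1 rose, where 15.8% of all genes fell and 12.1% rose. The median of the 41 genes was -0.67, -1.0 and -0.91 in WT cells, against 0.033, -0.20 and -0.38 in mutant cells, and that of all genes tested was 0 at each WT dose and at most 0.019 from 0 in the mutant. TIF4631, a scaffold of cap-dependent initiation, fell most steeply in WT at -0.36 ± 0.040 per mM (adjusted p = 3.25e-05), and the elongation factor gene EFB1 fell most steeply in the mutant at -0.31 ± 0.048 (adjusted p = 0.00111).

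At 3 mM, 10 of 41 factors already stood at least 2-fold below the array median in WT, as did 8.73% of all genes. The number was 22 at 6 mM (13.4% of all genes) and 19 at 9 mM (18.3%), and no factor stood at least 2-fold above the median on any WT array, where 9.57%, 14.2% and 17.3% of all genes did at 3, 6 and 9 mM. In the mutant 6 of 41 factors were at least 2-fold lower at 3 mM (8.54% of all genes), 7 at 6 mM (17.8%) and 12 at 9 mM (14.0%). At least 2-fold above the median in the mutant were 4, 3 and 2 factors at 3, 6 and 9 mM (4.3%, 7.35% and 14.4% of all genes). At 6 mM the share of lower factors in the mutant, 17.1%, thus lay near that of all genes. Below the array median at all 3 doses were 27 factors in WT (29.1% of all genes) and 16 in the mutant (31.9%). In WT, 16 factors had their lowest value at 6 mM (28.0% of all genes), 19 at 9 mM (38.1%) and 6 at 3 mM (33.9%).

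**Figure D1:**
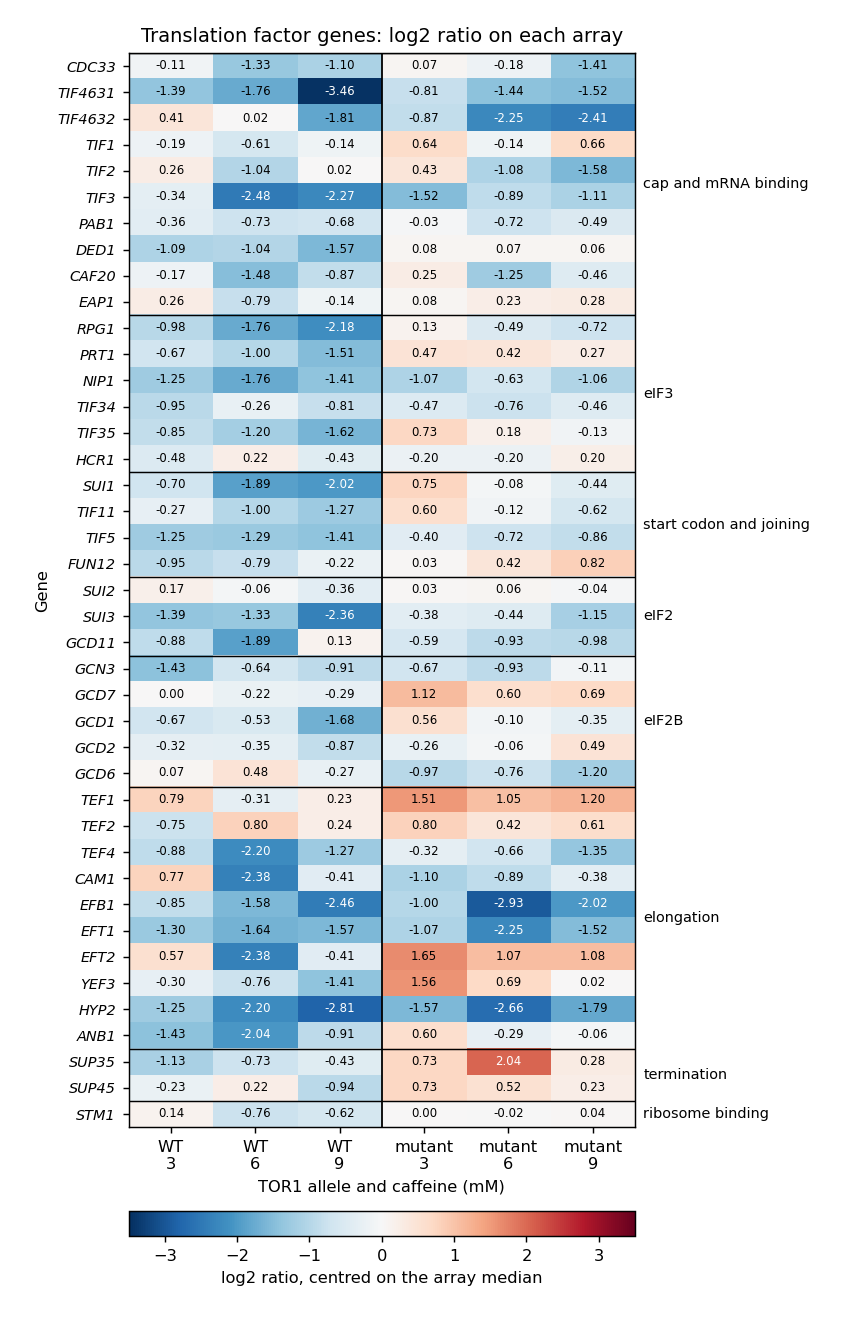
Log2 ratio of caffeine-treated over untreated RNA, centred on the array median, for the 41 translation factor genes (rows, grouped by role) on the 6 arrays (columns, by TOR1 allele and caffeine in mM), each cell being 1 array. The 3 WT columns hold mostly lower values than the 3 mutant columns, with 22 of 41 genes at -1 or below in WT at 6 mM against 7 in the mutant.

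When an intercept shared by all arrays was added, which allows a dye bias that is constant for a gene, none of the 20 WT falls and none of the 12 mutant calls passed, and the genes that fell went to 1.25% of all genes in WT and 0.153% in the mutant. The 20 WT slopes then kept their sign, with a median of -0.20 against -0.21, while their median SE went from 0.043 to 0.078 and the lowest adjusted p over the WT slopes was 0.0511. Single WT slopes moved more than this median, to between -0.33 and -0.050. That of EFT1 went from -0.22 to -0.050, and that of SUI1 from -0.25 to -0.33. The median of the 12 called mutant slopes went from -0.16 to -0.10. On the values as deposited, without centring, 28 factors fell in WT and 18 in the mutant, where 28.5% and 33.3% of all genes fell and 9.38% and 3.86% rose, and the median factor in the mutant at 3 mM stood at -0.18 in place of 0.03.

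The cap-binding factors and their partners gave 5 falls among 10 genes in WT (16.3% of all genes), and 4 in the mutant (15.8% of all genes). CDC33 encodes eIF4E, which binds the cap, and stood at -0.11, -1.33 and -1.10 in WT cells, against 0.07, -0.18 and -1.41 in mutant cells. Its 3 mM value was the nearest to the median in both alleles, and the WT slope was -0.14 ± 0.043 (adjusted p = 0.0189). Leaving out the 6 mM WT array (adjusted p = 0.112) or that of 9 mM (adjusted p = 0.0832) ended this call. TIF4631 and TIF4632 encode both forms of eIF4G, the scaffold that links eIF4E to the helicase and to the poly(A)-binding protein. TIF4631 stood at -1.39, -1.76 and -3.46 in WT cells, against -0.81, -1.44 and -1.52 in mutant cells, below the array median on all 6 arrays, and at 9 mM in WT it was 11.0-fold below it. It fell in the mutant as well, at -0.20 ± 0.040 per mM (adjusted p = 0.00419), and the slopes differed by 0.17 ± 0.056 with a 95% interval of 0.047 to 0.29, which was not called (adjusted p = 0.106). TIF4632 stood at 0.41, 0.02 and -1.81 in WT cells, against -0.87, -2.25 and -2.41 in mutant cells. Here the mutant value was below the WT value at each matched dose, and the mutant slope of -0.30 ± 0.049 was called (adjusted p = 0.00147) while the WT slope of -0.12 ± 0.049 was not (adjusted p = 0.0799, 0.0137 to 0.786 over the processing alternatives). The difference between the slopes of TIF4632, -0.18 ± 0.070 with a 95% interval of -0.33 to -0.032, was itself not called (adjusted p = 0.154), and was called with the 9 mM WT array left out (adjusted p = 0.0267) or with the dose as a block (adjusted p = 0.0446).

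TIF1 and TIF2 encode the same protein, the helicase eIF4A. TIF1 stood at -0.19, -0.61 and -0.14 in WT cells, against 0.64, -0.14 and 0.66 in mutant cells and was called in neither. TIF2 stood at 0.26, -1.04 and 0.02 in WT cells, against 0.43, -1.08 and -1.58 in mutant cells, where it fell at -0.15 ± 0.048 per mM (adjusted p = 0.0313), a call lost without the mutant 6 mM array (adjusted p = 0.110) or 9 mM array (adjusted p = 0.342). The 2 copies thus lay within 1 log2 unit of each other on 5 arrays and apart by 2.24 on the mutant 9 mM array. TIF3, the gene of eIF4B, which aids the helicase, stood at -0.34, -2.48 and -2.27 in WT cells, against -1.52, -0.89 and -1.11 in mutant cells. It fell in both alleles, at -0.29 ± 0.050 per mM in WT (adjusted p = 0.000830) and -0.16 ± 0.050 in the mutant (adjusted p = 0.0338), the latter call being lost without any one of the mutant arrays (adjusted p = 0.0685 to 0.0872).

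DED1, a helicase that helps the small subunit scan long leaders, stood at -1.09, -1.04 and -1.57 in WT cells, against 0.08, 0.07 and 0.06 in mutant cells. All WT values lay below the median and all mutant values just above it, and the WT slope was -0.19 ± 0.038 (adjusted p = 0.00232). CAF20 and EAP1 encode the eIF4E-binding proteins of yeast, which compete with eIF4G. CAF20 stood at -0.17, -1.48 and -0.87 in WT cells, against 0.25, -1.25 and -0.46 in mutant cells, lowest at 6 mM in both alleles, and fell in WT at -0.14 ± 0.046 per mM (adjusted p = 0.0364). CAF20 did not pass without the 6 mM WT array (adjusted p = 0.214) or that of 9 mM (adjusted p = 0.0668). EAP1 stood at 0.26, -0.79 and -0.14 in WT cells, against 0.08, 0.23 and 0.28 in mutant cells. PAB1, the poly(A)-binding protein, stood at -0.36, -0.73 and -0.68 in WT cells, against -0.03, -0.72 and -0.49 in mutant cells, and neither gene was called in either allele.

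Subunits of eIF3, the large complex that holds the small subunit ready for the messenger, fell in WT in 4 of 6 cases (16.3% of all genes). In the mutant 1 of 6 fell, near the 15.8% of all genes that fell there. RPG1, the largest subunit (eIF3a), stood at -0.98, -1.76 and -2.18 in WT cells, against 0.13, -0.49 and -0.72 in mutant cells. Its WT values went down at each step of dose, with a slope of -0.26 ± 0.038 (adjusted p = 0.000206). PRT1 (eIF3b) stood at -0.67, -1.0 and -1.51 in WT cells, against 0.47, 0.42 and 0.27 in mutant cells, so that all mutant values lay above the median and all WT values below it. TIF35 (eIF3g) gave -0.85, -1.20 and -1.62 in WT cells, against 0.73, 0.18 and -0.13 in mutant cells. NIP1 (eIF3c) gave -1.25, -1.76 and -1.41 in WT cells, against -1.07, -0.63 and -1.06 in mutant cells. TIF35 thus separated by allele at all doses, whereas NIP1 lay below -0.6 on all 6 arrays. The WT slopes of PRT1, TIF35 and NIP1 were -0.17 ± 0.037, -0.19 ± 0.041 and -0.21 ± 0.046, with adjusted p = 0.00343, adjusted p = 0.00285 and adjusted p = 0.00299, and PRT1 did not pass with the 9 mM WT array left out (adjusted p = 0.0607). NIP1 also fell in the mutant (-0.13 ± 0.046, adjusted p = 0.0459), a call lost in 4 of 6 fits that left out 1 array (adjusted p = 0.0518 to 0.181 in those without the WT 6 mM array or any one mutant array). TIF34 (eIF3i) gave -0.95, -0.26 and -0.81 in WT cells, against -0.47, -0.76 and -0.46 in mutant cells. HCR1 (eIF3j), a loosely bound subunit, gave -0.48, 0.22 and -0.43 in WT cells, against -0.20, -0.20 and 0.20 in mutant cells, and neither was called.

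Of the 4 genes that act at the start codon and in joining the subunits, 3 fell in WT and none was called in the mutant. Among all genes 16.3% fell in WT and 15.8% in the mutant. SUI1, the gene of eIF1, which guards the choice of start codon, stood at -0.70, -1.89 and -2.02 in WT cells, against 0.75, -0.08 and -0.44 in mutant cells. The WT values were all below the mutant values, and the WT slope was -0.25 ± 0.043 (adjusted p = 0.000717). TIF11 (eIF1A, which works beside eIF1) stood at -0.27, -1.0 and -1.27 in WT cells, against 0.60, -0.12 and -0.62 in mutant cells, going down with each step of dose in both alleles. Its WT slope of -0.14 ± 0.041 was called (adjusted p = 0.0150), but not without the 6 mM (adjusted p = 0.0655) or 9 mM (adjusted p = 0.137) WT array. TIF5 (eIF5, which makes eIF2 hydrolyse its GTP) gave -1.25, -1.29 and -1.41 in WT, nearly the same at each dose, and -0.40, -0.72 and -0.86 in the mutant, with a WT slope of -0.19 ± 0.041 (adjusted p = 0.00287). FUN12, the GTPase eIF5B that joins the large subunit, was nearer to or further above the median with each step of dose, standing at -0.95, -0.79 and -0.22 in WT cells, against 0.03, 0.42 and 0.82 in mutant cells, and was not called in either (adjusted p = 0.185 and adjusted p = 0.170).

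eIF2 carries the initiator tRNA, and eIF2B reloads it with GTP, the step that the kinase Gcn2 blocks under amino acid starvation. Among the 3 subunits of eIF2, only SUI3 (beta) was called in WT, where 16.3% of all genes fell. SUI3 stood at -1.39, -1.33 and -2.36 in WT cells, against -0.38, -0.44 and -1.15 in mutant cells. SUI3 fell at -0.26 ± 0.040 per mM in WT (adjusted p = 0.000280) and at -0.11 ± 0.040 in the mutant (adjusted p = 0.0492), the mutant call being lost with the 6 mM WT array left out (adjusted p = 0.0534) and without any one mutant array (adjusted p = 0.0883 to 0.405). SUI2 (alpha), the subunit that Gcn2 phosphorylates, stayed within 0.36 of the median on all arrays, with 0.17, -0.06 and -0.36 in WT cells, against 0.03, 0.06 and -0.04 in mutant cells. GCD11 (gamma) stood at -0.88, -1.89 and 0.13 in WT cells, against -0.59, -0.93 and -0.98 in mutant cells and was not called, its WT 9 mM value lying apart from the other 5, which were all below -0.5.

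Of the 5 eIF2B genes 1 fell in each allele, and it was not the same gene. Such a count is near the share of all genes that fell (16.3% in WT and 15.8% in the mutant). GCD1 (gamma) stood at -0.67, -0.53 and -1.68 in WT cells, against 0.56, -0.10 and -0.35 in mutant cells, and fell in WT at -0.16 ± 0.041 per mM (adjusted p = 0.00873), which did not pass with the 9 mM WT array left out (adjusted p = 0.251). GCD6 (epsilon), the subunit that catalyses the exchange, stood at 0.07, 0.48 and -0.27 in WT cells, against -0.97, -0.76 and -1.20 in mutant cells. It is the only factor of the 41 other than TIF4632 whose mutant value lay below WT at all 3 doses, and it fell in the mutant at -0.14 ± 0.041 (adjusted p = 0.0197), though not without the mutant 6 mM array (adjusted p = 0.0666) or the 9 mM array (adjusted p = 0.121). GCN3 (alpha), the subunit dispensable for growth that senses phosphorylated eIF2, gave -1.43, -0.64 and -0.91 in WT cells, against -0.67, -0.93 and -0.11 in mutant cells (WT adjusted p = 0.0562). GCD7 (beta) gave 0.00, -0.22 and -0.29 in WT cells, against 1.12, 0.60 and 0.69 in mutant cells. GCD2 (delta) gave -0.32, -0.35 and -0.87 in WT cells, against -0.26, -0.06 and 0.49 in mutant cells, and neither was called.

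**Figure D2:**
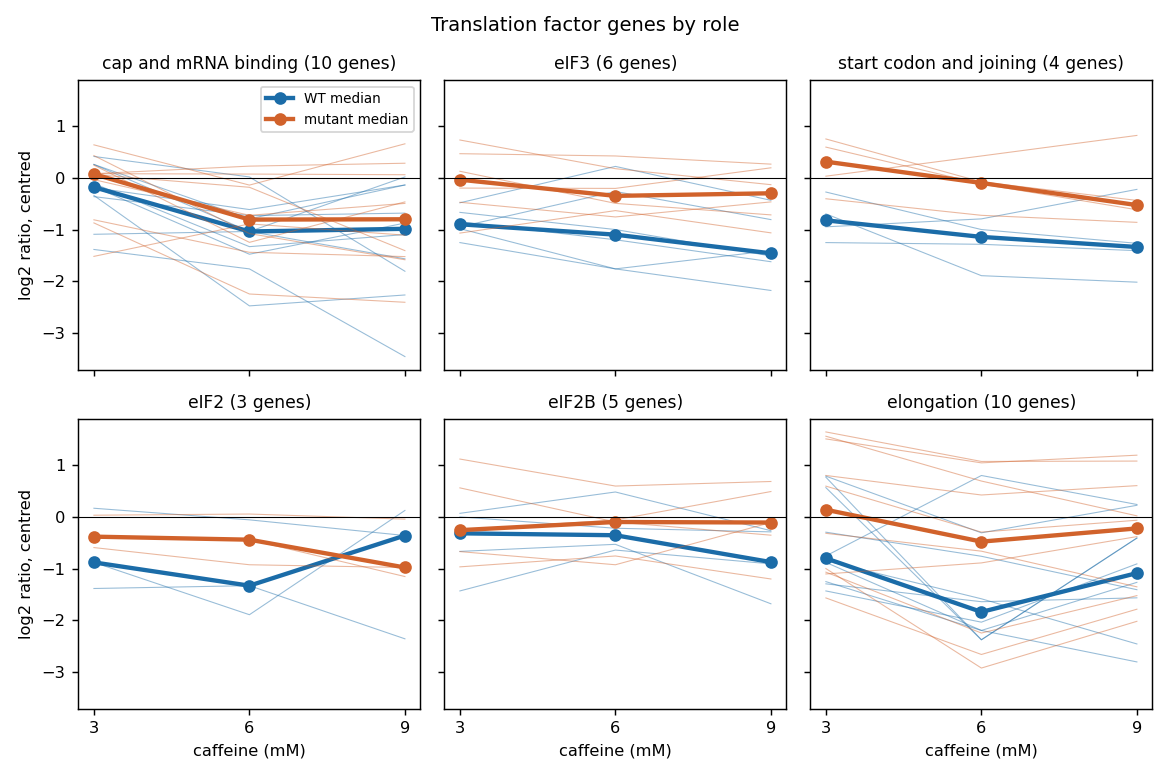
Log2 ratio, centred on the array median, against caffeine in mM for the 6 role groups with at least 3 genes; thin lines are single genes, thick lines with points the group median, blue for WT and orange for the mutant. The WT median lay below the mutant median at each dose in the eIF3, start codon, eIF2B and elongation groups and in the cap and mRNA binding group, while for eIF2 it lay above the mutant median at 9 mM.

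Elongation factors gave 6 falls among 10 genes in WT (16.3% of all genes). In the mutant they gave 4 falls (15.8% of all genes) and 1 rise (12.1% of all genes). EFB1, the exchange factor subunit eEF1B alpha that recharges eEF1A, stood at -0.85, -1.58 and -2.46 in WT cells, against -1.0, -2.93 and -2.02 in mutant cells. HYP2, the eIF5A of aerobic cells, which helps the ribosome past difficult peptide bonds, stood at -1.25, -2.20 and -2.81 in WT cells, against -1.57, -2.66 and -1.79 in mutant cells. EFT1, 1 of 2 genes for the translocase eEF2, stood at -1.30, -1.64 and -1.57 in WT cells, against -1.07, -2.25 and -1.52 in mutant cells. These 3 genes stood at -1.0 or below on all arrays but that of WT 3 mM for EFB1, the values of the alleles overlapped, and all 3 fell in both alleles. Their slopes in WT were -0.27 ± 0.048 for EFB1 (adjusted p = 0.000898), -0.34 ± 0.051 for HYP2 (adjusted p = 0.000287) and -0.22 ± 0.049 for EFT1 (adjusted p = 0.00369). In the mutant HYP2 gave -0.29 ± 0.051 (adjusted p = 0.00193) and EFT1 -0.24 ± 0.049 (adjusted p = 0.00422). The mutant minus WT slopes of the 3 genes were -0.036, 0.043 and -0.020 per mM, with 95% intervals of -0.18 to 0.11, -0.11 to 0.20 and -0.17 to 0.13.

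TEF4 and CAM1 encode eEF1B gamma. TEF4 stood at -0.88, -2.20 and -1.27 in WT cells, against -0.32, -0.66 and -1.35 in mutant cells, below the median on all arrays, and fell in WT (-0.22 ± 0.046, adjusted p = 0.00288) and in the mutant (-0.14 ± 0.046, adjusted p = 0.0411). The mutant call was lost without any one mutant array (adjusted p = 0.0691 to 0.343). CAM1 stood at 0.77, -2.38 and -0.41 in WT cells, against -1.10, -0.89 and -0.38 in mutant cells and was not called, its WT values running from above the median at 3 mM to 5.20-fold below it at 6 mM. YEF3, the fungal ATPase eEF3 that clears spent tRNA, stood at -0.30, -0.76 and -1.41 in WT cells, against 1.56, 0.69 and 0.02 in mutant cells. It went down with each step of dose in both alleles from different starting values, and its WT slope of -0.14 ± 0.051 (adjusted p = 0.0446) was not called without any one of the 3 WT arrays (adjusted p = 0.0638 to 0.356). ANB1, the eIF5A form that yeast makes mainly without oxygen, stood at -1.43, -2.04 and -0.91 in WT cells, against 0.60, -0.29 and -0.06 in mutant cells. All WT values of ANB1 lay below all mutant values, and it fell in WT at -0.20 ± 0.053 per mM (adjusted p = 0.0120), though not without the WT 6 mM array (adjusted p = 0.109).

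The genes of eEF1A, the most abundant elongation factor, did not fall in either allele. TEF1 stood at 0.79, -0.31 and 0.23 in WT cells, against 1.51, 1.05 and 1.20 in mutant cells, and was the only factor that rose in either allele, in the mutant at 0.17 ± 0.049 per mM (adjusted p = 0.0208). Its mutant value was highest at 3 mM, and the rise was not called on the values as deposited, with arrays scaled to a common spread, or without the mutant 6 mM array (adjusted p = 0.0681) or 9 mM array (adjusted p = 0.0533). TEF2, which encodes the same protein, stood at -0.75, 0.80 and 0.24 in WT cells, against 0.80, 0.42 and 0.61 in mutant cells and was not called. EFT2, which encodes the same eEF2 as EFT1, stood at 0.57, -2.38 and -0.41 in WT cells, against 1.65, 1.07 and 1.08 in mutant cells, where all values were at least 2-fold above the median (adjusted p = 0.0751 for the mutant slope).

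Copies of a duplicated factor gene often read differently on the same array. EFT1 lay below EFT2 on 5 of 6 arrays, by 3.32 log2 units at most (mutant 6 mM), and above it by 0.74 in WT at 6 mM. HYP2 lay below ANB1 on 5 of 6 arrays, by up to 2.37 in the mutant at 6 mM. TEF1 and TEF2 were apart by 1.54 in WT at 3 mM, with TEF1 higher, and by 0.016 at 9 mM. TEF4 and CAM1 differed by 0.18 to 1.65 in size, and TIF4631 and TIF4632 by 0.060 to 1.80. Spots for such copies can bind transcripts of both, and how far the probes tell them apart was not tested, since probe sequences were not used here.

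**Figure D3:**
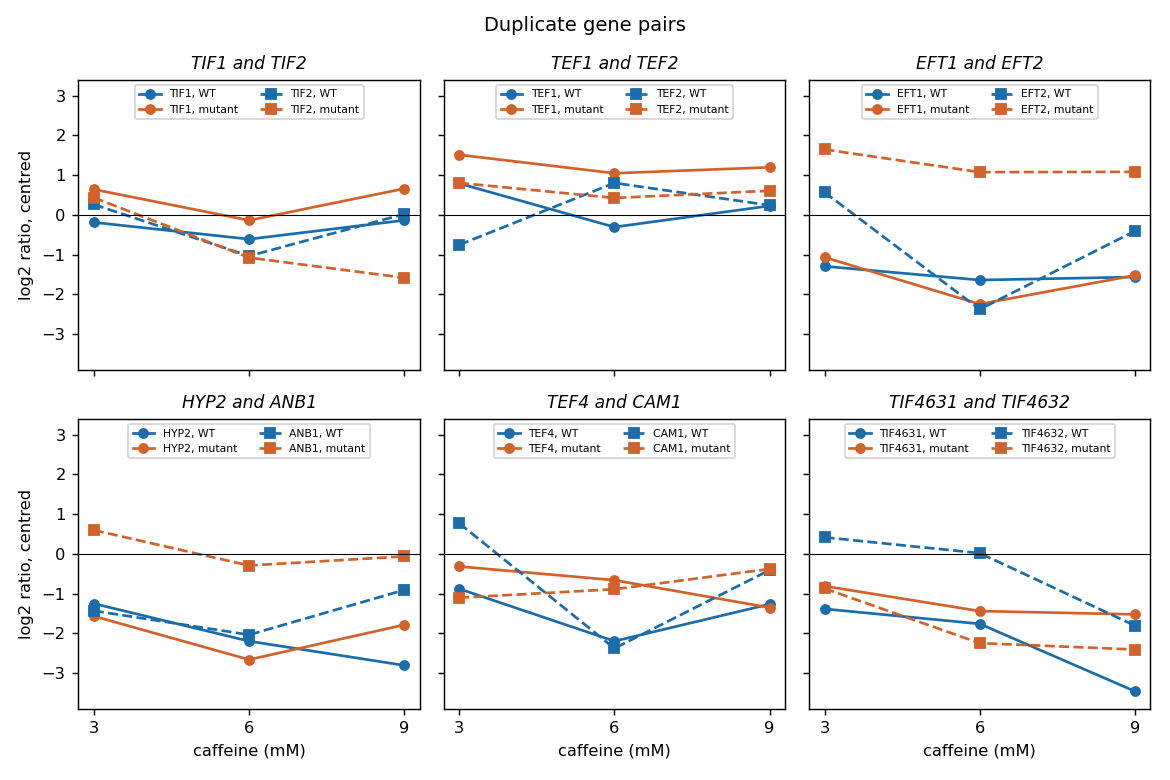
Log2 ratio, centred on the array median, against caffeine in mM for 6 duplicate pairs of factor genes, 1 array per point; circles with solid lines are the first-named copy, squares with broken lines the other, blue for WT and orange for the mutant. The copies of eEF2 are farthest apart in the mutant, with EFT1 between -2.25 and -1.07 and EFT2 between 1.07 and 1.65.

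The release factors were not called in either allele. SUP35 (eRF3), known also for its prion form, stood at -1.13, -0.73 and -0.43 in WT cells, against 0.73, 2.04 and 0.28 in mutant cells, with the mutant 6 mM value the highest of any factor on any array. SUP45 (eRF1), which reads the stop codon, stood at -0.23, 0.22 and -0.94 in WT cells, against 0.73, 0.52 and 0.23 in mutant cells. Both genes were above the median at all mutant doses and had higher values in the mutant than in WT at each matched dose. STM1, a protein that occupies idle ribosomes, stood at 0.14, -0.76 and -0.62 in WT cells, against 0.00, -0.02 and 0.04 in mutant cells, close to the median on each mutant array, with no call. In all, 17 factors were called in no comparison. Their lowest adjusted p was 0.0562 in WT and 0.0735 in the mutant, and 4 of the 17 had an unadjusted limma p below the 0.05 level in each allele.

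The study's title asks for the effect of caffeine in WT versus altered cells. At matched doses the factor genes mostly read higher in the mutant: 32 of 41 at 3 mM, 31 at 6 mM and 35 at 9 mM, with median differences of 0.57, 0.82 and 0.72 log2 units where the median of all genes was -0.045, -0.16 and 0.045. The mutant lay above WT at all 3 doses for 23 factors (24.5% of all genes) and below it at all 3 for 2 (26.3% of all genes). All 3 WT values lay below all 3 mutant values for 18 of 41 factors (43.9%), as they did for 13.7% of all genes. These counts carry no test.

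By the test on slopes, 2 of 41 factors differed between the alleles, PRT1 and SUI1, both higher in the mutant, where 1.94% of all genes were called higher and 2.32% lower. The difference was 0.22 ± 0.053 per mM for PRT1 (95% interval 0.11 to 0.34, adjusted p = 0.0359) and 0.23 ± 0.061 for SUI1 (95% interval 0.10 to 0.36, adjusted p = 0.0473). Each call was lost whichever array was left out, with adjusted p = 0.0533 to 0.107 for PRT1 and 0.0533 to 0.152 for SUI1, and while the sign held in all of these fits, the calls rest on having all 6 arrays. The mutant slope was the higher of both for 35 of 41 factors (2396 of 5212 genes). The unadjusted 95% interval of the difference lay above 0 for 15 factors (10.3% of all genes) and below 0 for 2, TIF4632 and GCD6 (10.9% of all genes). Next to the threshold were DED1 at 0.20 ± 0.054 (adjusted p = 0.0584), TIF35 at 0.21 ± 0.058 (adjusted p = 0.0584) and RPG1 at 0.19 ± 0.053 (adjusted p = 0.0606). EFT2 had the largest difference, 0.30 ± 0.10, with the widest interval, 0.092 to 0.50 (adjusted p = 0.0949).

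When arrays of the same dose were paired, by a limma fit of the mean mutant minus WT difference with the dose as a block, 10 factors were called higher in the mutant and 2 lower, where 5.18% of all genes were called higher and 6.1% lower. This fit was chosen after the data had been seen and has 2 residual degrees of freedom. PRT1 stood 1.45 ± 0.30 log2 units higher in the mutant (adjusted p = 0.0227) and SUI1 1.62 ± 0.29 (adjusted p = 0.0165). The others called higher were the initiation factor genes DED1, RPG1, TIF35 and FUN12, the elongation factor genes EFT2, YEF3 and ANB1, and SUP35, with mean differences from 1.08 (FUN12, adjusted p = 0.0453) to 2.01 (EFT2, adjusted p = 0.0281). TIF4632 was lower by -1.38 ± 0.37 (adjusted p = 0.0446) and GCD6 by -1.07 ± 0.29 (adjusted p = 0.0475). Among the 3 slope differences next to the threshold, that of DED1 also passed with a shared intercept (adjusted p = 0.0498).

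**Figure D4:**
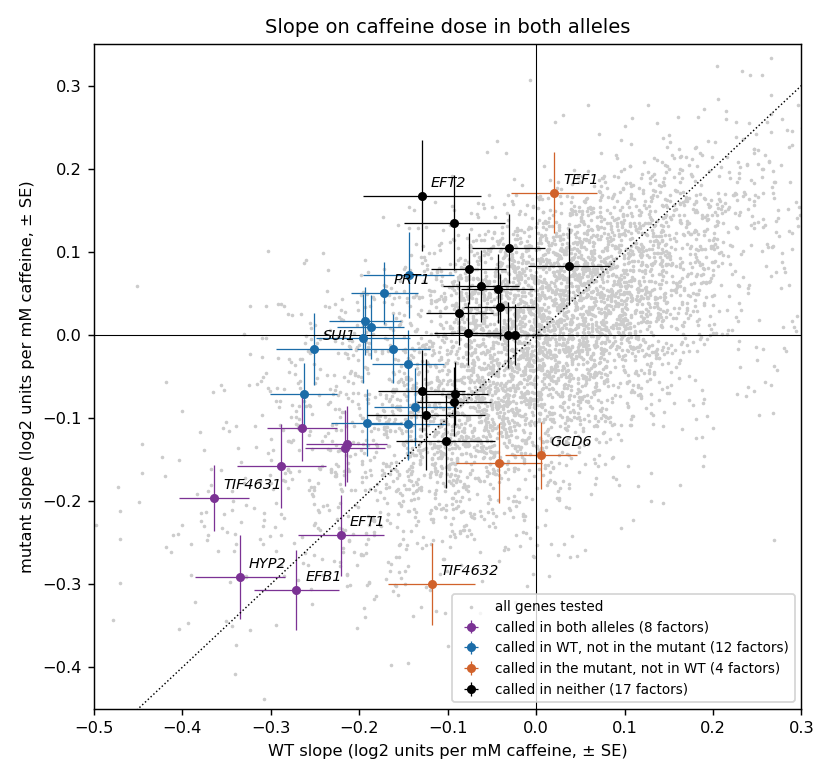
Slope on caffeine dose in WT (x axis) and in the mutant (y axis), in log2 units per mM, with SE bars, for the 41 factors, coloured by the alleles in which the slope was called; grey points are the genes tested, of which 130 lie outside the axes, and the dotted line marks equal slopes. Of the 41 factors 35 lie above that line, 8 fell in both alleles (7.43% of all genes), 12 in WT and not in the mutant (8.92%) and 3 in the mutant and not in WT (8.35%), and TEF1 rose in the mutant.

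**Figure D5:**
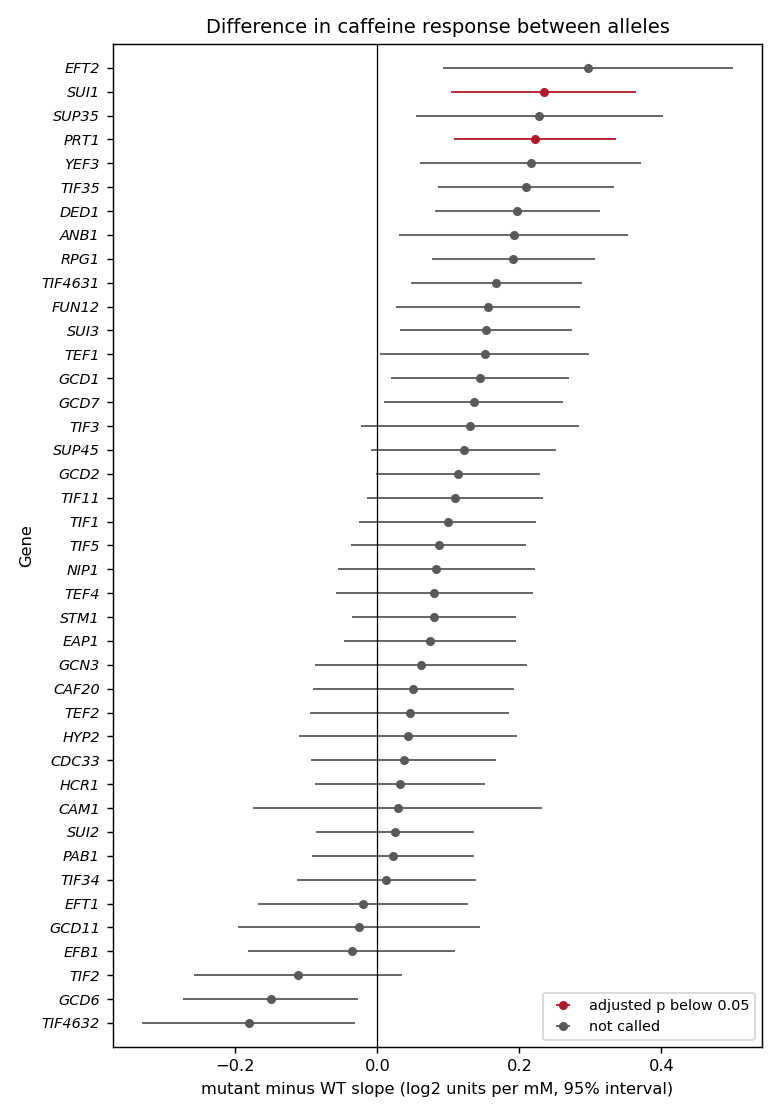
Mutant minus WT slope in log2 units per mM for each of the 41 factors, with the unadjusted 95% interval; red marks an adjusted p below 0.05 over all genes. PRT1 and SUI1 are marked, and 15 intervals lie wholly above 0 and 2 below it, as do 10.3% and 10.9% of those of all genes.

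Of the 20 WT falls 13 were called in each of the 6 fits that left out 1 array. Of the 12 mutant calls 5 were, namely the falls of TIF4631, TIF4632, EFB1, EFT1 and HYP2. Without the mutant 3 mM array 7 of 41 factors fell in the mutant (11.2% of all genes). The number was 5 without the mutant 6 mM array (6.33% of all genes) and 5 without the mutant 9 mM array (12.5%). In the fit without the mutant 9 mM array the count thus lay near the share of all genes. A factor called in WT and not in the mutant is not thereby shown to differ, and among the 12 such falls only PRT1 and SUI1 had a called slope difference.

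Cytosolic ribosomal protein genes, which make the ribosome on which these factors act, were read on the same arrays. In WT 115 of 129 fell (89.1%, against 16.3% of all genes), with medians of -0.95, -1.58 and -1.87. In the mutant 50 fell (38.8%, against 15.8% of all genes) and 1 rose (12.1% of all genes), with medians of -0.12, -0.49 and -0.79. Their slopes differed by allele in 15 of 129 cases (11.6%), all higher in the mutant. Among all genes 1.94% were called higher and 2.32% lower. The median mutant minus WT slope was 0.15 per mM for the ribosomal protein genes, against 0.086 for the factors and -0.010 for all genes. These lists were set side by side without a test between them.

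Other genes of the pathway were read from lists chosen by name, and those named beyond the 3 steepest WT slopes of a list were picked after their values were seen. Beside the counts below, 16.3% of all genes fell and 17.2% rose in WT, and 15.8% fell and 12.1% rose in the mutant. Enzymes that build the unusual residues hypusine on eIF5A and diphthamide on eEF2 fell in WT in 5 of 6 measured cases. In the mutant 1 of 6 fell, near the share of all genes. LIA1, which completes hypusine, stood at -1.30, -2.38 and -2.94 in WT cells, against 0.38, -0.89 and -1.11 in mutant cells, and its slopes differed by 0.24 ± 0.059 (adjusted p = 0.0394). DYS1, which begins hypusine, and DPH1, DPH2 and JJJ3, of diphthamide synthesis, were the other genes that fell in WT, and DPH2 also in the mutant. Among 9 regulators around Gcn2 and the ribosome-bound GTPases, 4 fell in WT (RBG1, RBG2, TMA46 and TIF6) and RBG1 and RBG2 in the mutant, RBG1 standing at -0.67, -1.83 and -5.27 in WT. The other 5 genes of this list, GCN2 itself with GCN1, GCN20, YIH1 and GIR2, were called in neither allele. RBG1 and RBG2 are GTPases that associate with translating ribosomes, and the 9 mM value of RBG1 rests on a deposited ratio of 0.02, given with 2 decimals.

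Messenger-binding repressors and P body proteins were mixed, with 2 of 10 lower in WT and, in the mutant, 2 lower and 3 higher. Among all genes 16.3% fell in WT, and 15.8% fell and 12.1% rose in the mutant, so both counts of falls lay near the background. SRO9, an RNA-binding protein found with translating ribosomes, stood at -0.88, -1.53 and -2.27 in WT cells, against -0.02, 0.31 and 0.00 in mutant cells, a difference in slope of 0.27 ± 0.052 (adjusted p = 0.0155). PUB1, a poly(U)-binding protein, fell in both alleles and GIS2 in the mutant, where the RNA helicase gene DHH1, SBP1 and SLF1 rose. RLI1, the ATPase that splits ribosomes after termination, was the only one of 6 recycling and rescue genes to fall in WT, with values of -1.43, -2.29 and -1.87, and none of the 6 was called in the mutant. A count of 1 among 6 is near the share of all genes that fell in WT. Of 10 chaperones and enzymes that meet the nascent chain, SSB1, SSB2 and ZUO1, the Hsp70 chaperones of the ribosome and their J-protein partner, fell in WT and none was called in the mutant. No mitochondrial translation factor among 8 was called in WT, and MEF2, a mitochondrial recycling factor, fell in the mutant at -0.15 per mM (adjusted p = 0.0278).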

How the data were processed

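The study measured polyadenylated RNA on 6 2-colour arrays, 1 per TOR1 allele and caffeine dose. Per the labels, Cy3 marked untreated and Cy5 caffeine-treated RNA, with no dye swap. The deposited values are log2 ratios made by the authors, and their background correction and normalization are not given in the sources used here; a constant dye bias would enter each ratio. Of 6214 probes, 5596 had 1 gene symbol, all matched to RefSeq, and 618 had none and were left out of the fit. Probes without a value numbered 22 to 234 per array. Spots of a gene were averaged, arrays centred on the median named gene, and the 5212 genes with 6 values fitted with limma 3.58.1 (R 4.3.3), as a slope on dose per allele with no intercept. The contrasts were each slope against 0 and mutant minus WT, with Benjamini-Hochberg adjustment over 5212 genes at 0.05. With 3 arrays per allele, the number of arrays limits the precision. All 41 genes are named by role, and values on each array are given for those called in any contrast and for both copies of duplicate pairs; of each pathway list the rule names up to 3 called genes with the steepest WT slopes, and the other pathway genes named were picked after their values were seen. The members and lists were chosen with earlier results of these data known. The script was tested on simulated data. Promoter motifs and protein sequences were planned but not used here. Alternatives were other centrings, scaling, a shared intercept, the mean of doses, a ratio floor, a looser filter, robust moderation and leaving out each array, and, chosen after the data had been seen, the mean allele difference with the dose as a block.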

Additional observations from a re-analysis of the deposited data

Results flagged for a closer look

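For 6 genes the alleles either differed by the test of the slope difference or stood on opposite sides of the array median. For PRT1 and SUI1 the mutant minus WT slope passed the limma test over all genes, at 0.22 per mM (adjusted p = 0.0359) and 0.23 per mM (adjusted p = 0.0473), and neither passed when any 1 array was left out. PRT1, DED1, FUN12, YEF3 and SUP35 stood below the array median at all 3 WT doses and above it at all 3 mutant doses. Among all genes, 29.1% lay below it at all 3 WT doses and 31.4% above it at all 3 mutant doses. The share of all genes with both traits was not counted, so this number cannot be set against a background. The slope difference was 0.20 per mM for DED1 (adjusted p = 0.0584), 0.16 for FUN12 (adjusted p = 0.156), 0.22 for YEF3 (adjusted p = 0.107) and 0.23 for SUP35 (adjusted p = 0.127), none of which passed. DED1 passed with a shared intercept (adjusted p = 0.0498) and by the mean of doses (adjusted p = 0.0498). By the mean of doses PRT1 also passed (adjusted p = 0.0473), but SUI1 did not (adjusted p = 0.0725). With the dose as a block, a fit chosen after the data had been seen, DED1 (adjusted p = 0.0287), FUN12 (adjusted p = 0.0453), YEF3 (adjusted p = 0.0183) and SUP35 (adjusted p = 0.0283) were called higher in the mutant. DED1, FUN12, YEF3 and SUP35 were flagged because their WT values lay below the median and their mutant values above it. A positive mean difference was built in by that choice. Fits to the same values are thus no separate test of it.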

How the results depend on the processing

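With 1 array per dose, each reported slope test rests on the spread around a line through 0. The counts of factors that fell in WT (20), fell in the mutant (11), rose in the mutant (1) and differed higher in the mutant (2) did not change with a ratio floor of 0.1 or robust moderation. A shared intercept left 0, 0 and 0 within the alleles (1.25% of all genes then fell in WT and 0.153% in the mutant) and 3 differences higher, the third being DED1, and the mutant slope of NIP1 then turned to 0.029 (adjusted p = 0.936). As deposited, 18 fell and 0 rose in the mutant, 0 differed, and the mutant median at 3 mM turned to -0.18. With arrays scaled to a common spread 16 fell in WT (9.88% of all genes), and CDC33, CAF20, TIF11 and YEF3 lost their WT calls. In the mutant 5 then fell and 0 rose, where 8.19% of all genes fell and 4.93% rose. With that scaling 0 differed, as did 0 of all 5212 genes. With centring on all probes 1 differed (1.55% of all genes were called higher), namely PRT1, and SUI1 was lost. By the mean of doses PRT1 and DED1 differed and SUI1 did not (1.46% of all genes were called higher). In that fit 3 factors rose in the mutant (11.4% of all genes) and 19 fell in WT (15.7%). Those WT falls no longer held CDC33, CAF20 and YEF3 but held TIF34 and GCN3. Leaving out 1 array gave 15 to 21 falls in WT (9.11% to 17.5% of all genes) and 5 to 12 in the mutant (6.33% to 17.3%). Rises in the mutant numbered 0 to 2 (2.99% to 14.2% of all genes). Differences numbered 0 to 2 higher (0.0576% to 2.61% of all genes) and 0 to 1 lower (0.307% to 3.84%). The one lower was TIF4632 without the WT 9 mM array. The higher ones were EFT2 and ANB1 without the WT 9 mM array, and YEF3 and SUP35 without the mutant 9 mM array. PRT1 and SUI1 were called in none of these fits. The causes were not tested. With dose-matched arrays paired by the dose as a block, chosen after the data had been seen, 10 differed higher and 2 lower (5.18% and 6.1% of all genes). No replicate numbers pair the arrays.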
